A study of Mus musculus with 18 samples.

Results

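The POU4 genes Pou4f1, Pou4f2 and Pou4f3 encode the Brn3 transcription factors, which carry a POU-specific domain next to a POU homeodomain and bind DNA with both. Pou4f1 is known from sensory ganglia, the medial habenula and dorsal spinal interneurons, Pou4f2 from retinal ganglion cells and Pou4f3 from inner ear hair cells. In these cells the factors act late in differentiation, on survival, axon growth and the choice between neuron subtypes. The 3 genes were taken by their Entrez identifiers out of 27179 genes with deposited read counts. The family was chosen by its measured counts in iHoxc9 against control neurons. Each contrast of these genes with iHoxc9 or control libraries is therefore given as a description, without a test, and low counts in the shared control libraries raise the difference in every group set against them.

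RNA was sequenced from mouse embryonic stem cells (Ainv15 lines) differentiated as embryoid bodies towards spinal motor neurons with retinoic acid and the Hedgehog agonist SAG, and the study asked how different Hox factors, when induced, change the fate of the neurons. There were 18 libraries, 3 in each of 6 groups, and replicates were independent differentiations. Day 2 progenitors came from the iCre line and were collected without doxycycline (Dox). The other 5 groups were collected on day 4. Control neurons came from the iFlag.Hoxc6 line without Dox, and iHoxc6, iHoxc8, iHoxc9 and iHoxc10 neurons received 3 µg/ml Dox for 48 h to switch on a single Flag-tagged Hox transgene. Each condition rests on 1 engineered line, iHoxc8, iHoxc9 and iHoxc10 neurons have no uninduced library of their own line here, and the cultures mix motor neurons, interneurons and remaining progenitors. In such bulk samples, fewer cells of a type and less RNA per cell cannot be told apart.

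Total counts ran from 24498630 to 33168533 per library, so that 3 counts, the floor used here, stood for 0.0883 to 0.122 CPM (counts scaled per library to a common total, normalized by edgeR's TMM method). The libraries came from 4 sequencing runs. Control and iHoxc6 shared a run, iHoxc9 and iHoxc10 shared a run, and day 2 progenitors and iHoxc8 each had their own. In comparisons between runs the run, the line and the induced gene cannot be told apart. The 4 transgenes were detected at high levels in their own lines, from 213.3 CPM for Hoxc9 to 532 CPM for Hoxc6 in single libraries. The 5 neuron markers (Tubb3, Elavl3, Map2, Dcx, Stmn2) summed to 416 CPM in day 2 progenitors and to between 5543 and 7378 CPM in the day 4 groups. The 7 motor neuron markers all had a mean of at least 1 CPM in 4 of the 5 day 4 groups, and 6 of them did in iHoxc6.

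The members lie on different chromosomes of GRCm38.p6, and none overlaps another RefSeq gene. Pou4f1 (Entrez 18996) is on the minus strand of chromosome 14 at 104461675 to 104468118, with 3 exons and 4672 exonic bases. Pou4f2 (Entrez 18997) is on the minus strand of chromosome 8 at 78433009 to 78436647, with 2 exons and 3204 exonic bases. The longest stretch of identical bases in transcripts of 2 members was 71 bases, between Pou4f1 and Pou4f2, and no window of 75 bases, the length of the reads, was shared by any pair. The promoters of the 2 members at opposite ends of the measured range follow, to show what sequence stands before a member counted in every library (Pou4f1) and before a member at or under 3 counts in every library (Pou4f2). They are read from RefSeq on GRCm38.p6, minus strand, chr14:104468119-104468249 and chr8:78436648-78436897, both ending at the base before the annotated start, with CG dinucleotides in capitals.

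Pou4f1: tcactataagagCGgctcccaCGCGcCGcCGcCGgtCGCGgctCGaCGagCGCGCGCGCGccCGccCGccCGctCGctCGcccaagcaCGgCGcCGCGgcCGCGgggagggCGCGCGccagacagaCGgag
Pou4f2: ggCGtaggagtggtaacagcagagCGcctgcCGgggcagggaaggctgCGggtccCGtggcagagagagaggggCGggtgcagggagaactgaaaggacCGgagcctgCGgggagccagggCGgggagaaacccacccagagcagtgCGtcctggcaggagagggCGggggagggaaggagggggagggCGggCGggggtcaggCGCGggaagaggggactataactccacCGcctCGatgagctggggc

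The 131 bases shown for Pou4f1 hold 30 CG dinucleotides and the 250 shown for Pou4f2 hold 17. Whole promoter windows run from 250 bases before to 50 bases after a start. For Pou4f2 this is the annotated start used above. The Pou4f1 window (chr14:104467950-104468249) is set on a start inside the gene span, and only its 131 bases shown lie before the annotated start. The windows of these genes therefore cover unlike parts. The Pou4f1 window had 57 CG dinucleotides and 78.33% GC, and 99.8% of 32851 promoter windows of this length had fewer CG dinucleotides. The Pou4f2 window had 18 CG dinucleotides and 69.67% GC, and 70.3% of windows had fewer. The median window held 7 CG dinucleotides and 52.7% GC. The homeodomain core TAAT and the posterior Hox core TTTAT, searched on both strands, were in neither window, while 58% and 40% of all windows held them. This says only that these letters are not in these windows.

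Pou4f3, the hair cell member, had reads in a narrow set of groups. The gene (Entrez 18998) is on the plus strand of chromosome 18 at 42394597 to 42396093 on GRCm38.p6, with 2 exons and 1185 exonic bases in this span. Its counts were 0 in all 9 libraries of day 2 progenitors, control and iHoxc6 neurons. In iHoxc8 neurons the counts were 0, 2 and 1, while the iHoxc10 libraries had 4, 6 and 6. In iHoxc9 neurons they were 71, 95 and 67, which corresponds to 2.78, 2.80 and 2.67 CPM. The iHoxc9 libraries therefore stood above every other library without overlap, and they varied little among themselves, at 2.75 ± 0.0697 CPM (SD, n = 3). In 20.9% of the 20944 genes tested every iHoxc9 library lay above every control library, and the share above every other library was not counted. Against 3 counts in each control library, the iHoxc9 level was at least 25.4-fold higher, which describes the choice of this gene and is not tested.

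The iHoxc10 libraries also held Pou4f3 reads. The level was 0.199 ± 0.0533 CPM (SD, n = 3), with 4 to 6 counts in a library against a floor of 3, and at least 1.84-fold higher than control on that floor. The iHoxc10 and control libraries did not overlap, and in 17.3% of the 20944 genes tested every iHoxc10 library lay above every control library. The difference rests on 16 counts in all against 0. In iHoxc8 neurons both sides were at or under the floor, so no fold is given. A count of 0 allows up to 0.0964 to 0.116 CPM in a control library, so lower levels of Pou4f3 were not detectable at this depth.

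Pou4f3 was 14.0 times as high in iHoxc9 as in iHoxc10 neurons on pooled counts. Every iHoxc9 library lay above every iHoxc10 library, as in 17.4% of genes. The ratio was not tested, since the gene was chosen by its iHoxc9 counts. Both groups shared a run, so the level of the induced Hoxc9 in each was set beside that of Pou4f3. Hoxc9 stood at 224.3 CPM in iHoxc9 and at 0.0623 CPM in iHoxc10, or 0.0278% of its iHoxc9 level. The corresponding share for Pou4f3 was 7.26%.

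Pou4f1, the member best known from sensory neurons, was measured in every library, with at least 38 counts. In day 2 progenitors the libraries had 69, 90 and 76 counts (2.32, 2.995 and 2.37 CPM). In control neurons they had 73, 38 and 59 counts (2.35, 1.46 and 2.21 CPM), and in iHoxc8 neurons 90, 49 and 91 (2.66, 1.64 and 2.85 CPM). These 3 groups overlapped each other. The iHoxc6 libraries had 108, 109 and 101 counts (3.77, 3.39 and 3.51 CPM), above all of them. The iHoxc9 libraries followed with 131, 194 and 108 counts (5.12, 5.71 and 4.30 CPM), and the iHoxc10 libraries were highest, with 189, 193 and 166 counts (6.62, 6.92 and 6.73 CPM).

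In order of the mean, Pou4f1 stood at 2.01 ± 0.474 CPM in control, 2.38 ± 0.652 in iHoxc8, 2.56 ± 0.374 in day 2 progenitors, 3.56 ± 0.191 in iHoxc6, 5.04 ± 0.709 in iHoxc9 and 6.75 ± 0.150 CPM in iHoxc10 (SD, n = 3 each). The library ranges of the lowest 3 groups overlapped, while iHoxc6, iHoxc9 and iHoxc10 each stood apart from their neighbors in this order. How many of all genes stand apart in this order was not counted, and shares are given for single comparisons with control. In iHoxc10 against control the log2 fold change of Pou4f1 was 1.74 ± 0.22 (standard error, SE), and the libraries of these groups did not overlap, as was so in the same direction for 17.3% of genes.

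The other differences of Pou4f1 were smaller. Within the run shared with control, iHoxc6 had a log2 fold change of 0.82 (SE 0.22). Its libraries did not overlap control, as was so in the same direction for 11.9% of genes. For iHoxc8 against control the log2 fold change was 0.25 (SE 0.23), and for control neurons against day 2 progenitors it was -0.35 (SE 0.23), with overlapping libraries in both cases. The log2 fold change of iHoxc9 was 1.33 (SE 0.22) against control and -0.42 (SE 0.21) against iHoxc10. In 20.9% of genes every iHoxc9 library lay above every control library.

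Pou4f2, the retinal ganglion cell member, was at or under 3 counts in all 18 libraries. Its counts were 2, 1 and 1 in day 2 progenitors, 1, 0 and 1 in control, 1, 0 and 0 in iHoxc6, 0 in each iHoxc8 library, 1, 0 and 0 in iHoxc9 neurons, while iHoxc10 neurons had 3, 0 and 1. No fold is given for any comparison of Pou4f2. A difference below the floor was not detectable at this depth. All 3 members passed the filter of at least 1 count in any iHox library, Pou4f2 through 6 counts over the 12 iHox libraries and Pou4f3 through iHoxc8, iHoxc9 and iHoxc10 reads alone.

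**Figure D1:**
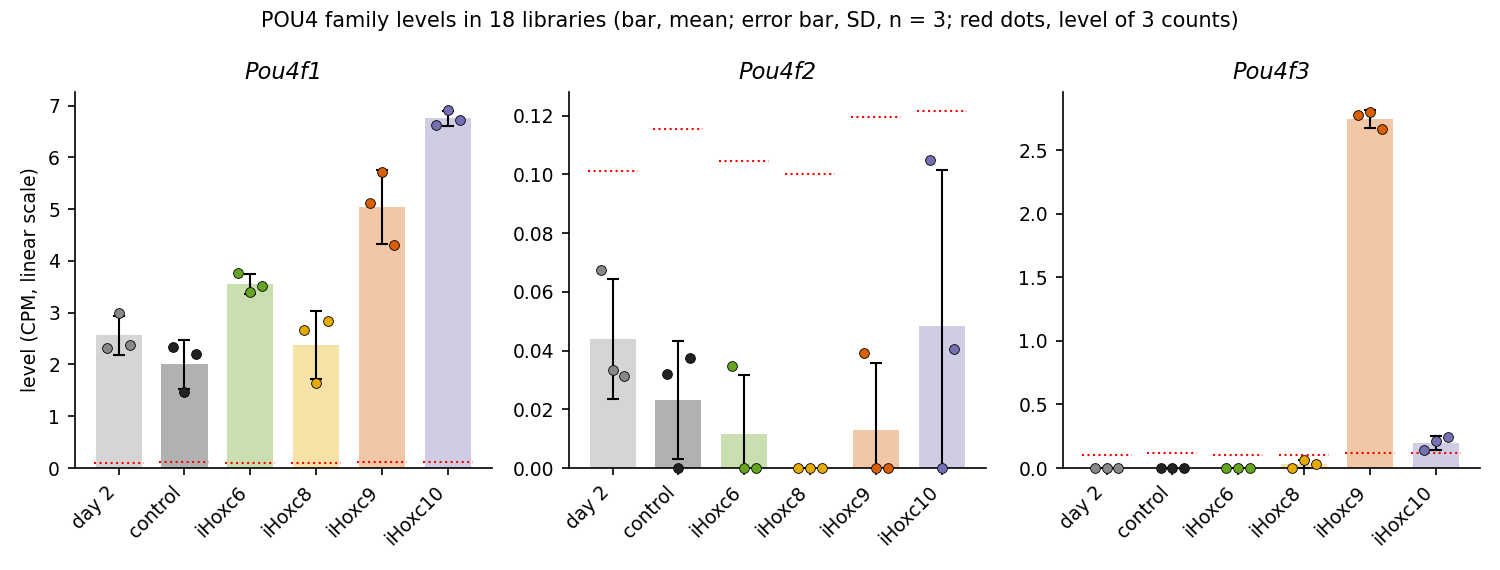
Level in CPM (linear scale, a separate scale for each gene) of Pou4f1, Pou4f2 and Pou4f3 in the 6 groups; points are libraries, bars are means, error bars are SD (n = 3) and dotted red lines are the highest level of 3 counts within a group. Pou4f3 stands at 2.67 to 2.80 CPM in iHoxc9 and at most at 0.243 CPM elsewhere, Pou4f1 is highest in iHoxc10, and Pou4f2 lies under the dotted lines in every library.

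Levels of different genes were compared per kilobase of exon. In iHoxc9 neurons Pou4f3 was at 2.32 ± 0.0588 CPM per kilobase and Pou4f1 at 1.08 ± 0.152 (SD, n = 3), a ratio of 2.17 ± 0.259 within libraries. Pou4f3 made up 68.2 ± 2.57% of the length-scaled sum of the family in iHoxc9, 10.3 ± 2.48% in iHoxc10 and at most 13.9% in an iHoxc8 library, where it rests on 2 counts. In the other 3 groups Pou4f1 made up between 97.5% and 99.6% of the sum. The Pou4f3 value depends on the exon length used. With the 2399 bases that GENCODE gives to the gene, the iHoxc9 level was 1.14 CPM per kilobase, close to that of Pou4f1. The family as a whole summed to 3.40 ± 0.210 CPM per kilobase in iHoxc9, 1.63 ± 0.0532 in iHoxc10 and 0.437 ± 0.108 in control.

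**Figure D2:**
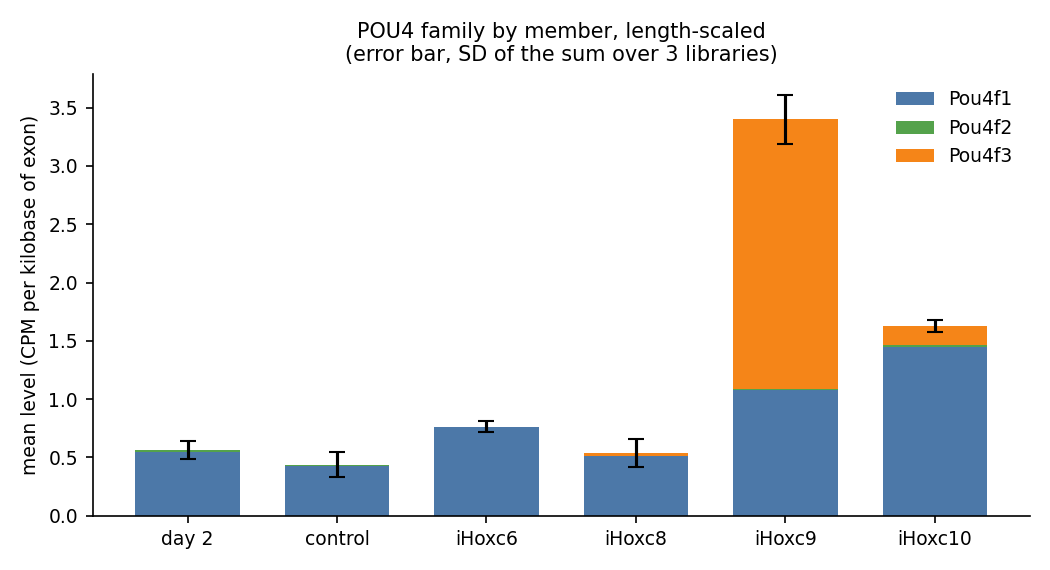
Mean level of the 3 members in CPM per kilobase of exon, stacked by member for the 6 groups; error bars are the SD of the sum over 3 libraries. Pou4f1 is nearly the whole sum everywhere except in iHoxc9, where Pou4f3 makes up 68.2%, and in iHoxc10, where it makes up 10.3%.

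The other POU genes were taken as relatives of the family. The list holds 12 genes, among them the octamer-binding Pou2 genes, the Pou3 genes of neural progenitors and neurons, and the pluripotency factor Pou5f1. In 10 of them there were enough counts for testing, and 4 (Pou1f1, Pou2f3, Pou5f1 and Pou5f2) were at 3 counts or fewer in every day 4 library. In iHoxc9 against control, Pou3f2 (Brn2) rose from 26.4 ± 6.63 to 145.4 ± 20.3 CPM, a log2 fold change of 2.46 (SE 0.25, edgeR adjusted p = 1.69e-07), and Pou3f1 fell by 1.20 on the log2 scale (adjusted p = 7.23e-05, edgeR). The remaining 8 did not pass an adjusted p under 0.01, which 14.1% of all genes did (edgeR's quasi-likelihood test, Benjamini-Hochberg adjusted over all genes tested). The median log2 fold change of the list was 0.36 and that of all genes was 0.00.

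In iHoxc10 against control, where Pou4f1 was highest, Pou3f2 had a log2 fold change of 0.90 (adjusted p = 0.00777, edgeR), which did not pass with the replicate number as a block (adjusted p = 0.0119, edgeR), nor without the first or the third control library (0.0478 and 0.0396) or the first or second iHoxc10 library (0.0527 and 0.0147). None of the 10 passed in iHoxc6 or iHoxc8 at an adjusted p under 0.01 by edgeR. Between iHoxc9 and iHoxc10, Pou3f2 was higher in iHoxc9 by 1.56 (adjusted p = 0.000109, edgeR) and Pou3f1 fell by 1.22 (adjusted p = 0.000117, edgeR), beside 4.99% of all genes at that threshold. Neither also passed the log2 fold change of 2 that the study required, which 1.31% of genes did.

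From day 2 progenitors to control neurons, between which the Pou4f1 libraries overlapped, 5 of the 10 POU relatives rose and 1 fell, beside 21.2% of all genes in each direction. Pou2f2, Pou6f1 and Pou3f1 rose by 4.84, 2.95 and 2.94 on the log2 scale (adjusted p = 3.65e-11, 9.55e-14 and 5.69e-11 by edgeR). Pou3f4 and Pou3f3 rose by 1.98 and 1.05 (adjusted p = 1.57e-09 and 0.000395 by edgeR). Pou5f1, at 9 to 76 counts in the day 2 libraries, was at 0 in all control libraries and at least 9.60-fold lower (adjusted p = 5.94e-05, edgeR). Whether these changes differ from that of Pou4f1 was not tested.

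**Figure D3:**
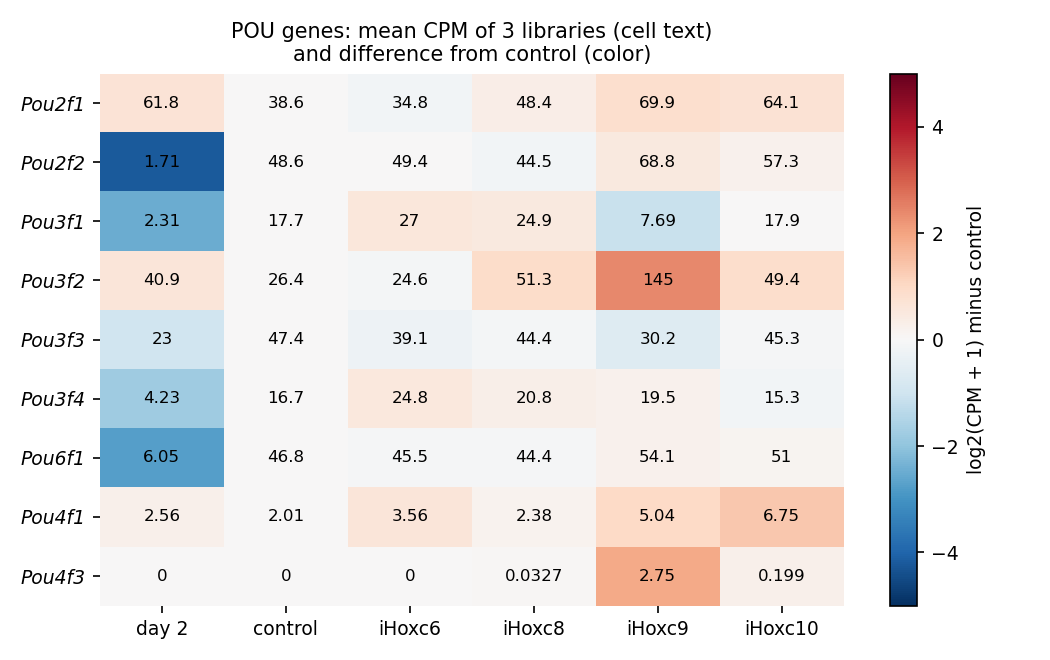
Mean CPM of 3 libraries (cell text) and the difference from control in log2(CPM + 1) (color) for Pou4f1, Pou4f3 and 7 other POU genes in the 6 groups. Pou3f2 at 145.4 CPM and Pou4f3 at 2.75 CPM have their highest values in iHoxc9, while Pou4f1 has its highest value in iHoxc10.

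Genes known to act upstream of POU4 factors or together with them were taken as a list of 15, among them the proneural factors Atoh1, Atoh7, Neurog1 and Neurog2, the LIM factors Isl1 and Isl2, and Tlx3, Six4, Eya1, Sox4 and Sox11. In iHoxc9 neurons 6 were higher and 1 was lower at an adjusted p under 0.01, beside 6.95% and 7.13% of all genes. Tlx3, a selector of glutamatergic dorsal and sensory neurons, rose from 0.620 ± 0.162 to 6.40 ± 0.524 CPM (log2 fold change 3.36, SE 0.33, edgeR adjusted p = 9.28e-08). Eya1, a transcriptional co-activator of sensory placodes, rose by 2.01 (adjusted p = 1.52e-05, edgeR), and Neurog1, the proneural factor of many sensory neurons, fell by 2.33 (adjusted p = 2.53e-06, edgeR). Atoh1, which drives hair cell fate, was at 0 in every iHoxc9 library, and at 0 or 1 count in every other library. The median log2 fold change of the list was 0.78, or 0.88 with genes at the floor set to their bound.

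In iHoxc10 neurons 3 of the 15 were higher and 2 lower at that threshold, beside 6.67% and 7.75% of all genes. Isl2, a motor and sensory neuron factor, fell by 2.61 (adjusted p = 6.99e-08, edgeR), from 45.4 ± 4.59 to 7.45 ± 1.54 CPM. Tlx3 was 0.733 ± 0.386 CPM in iHoxc10, with a log2 fold change of 0.23 (adjusted p = 0.716, edgeR). The median of the list was -0.00, or 0.23 with bounds. In iHoxc6 neurons 1 was higher (Tlx3) and 1 lower (Isl2), beside 0.363% and 0.224% of all genes. Tlx3 rose there by 1.93 (adjusted p = 0.00235, edgeR) to 2.38 ± 0.283 CPM, in the line and run of control, so its rise was not confined to iHoxc9. In iHoxc8 neurons 0 were higher and 1 lower, beside 1.03% and 1.09%.

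A list of 21 genes that are reported in other systems to depend on POU4 factors was also split in direction. In iHoxc9 neurons 4 were higher and 5 lower at an adjusted p under 0.01, beside 6.95% and 7.13% of all genes, and the median log2 fold change was 0.33. Adcyap1, the neuropeptide PACAP, rose by 4.55 (adjusted p = 5.03e-09, edgeR) to 43.1 ± 4.51 CPM, and the BDNF receptor Ntrk2 rose by 3.97 (adjusted p = 2.71e-11, edgeR) to 79.3 ± 12.4 CPM. In iHoxc10 neurons, where the Pou4f1 level was highest, 7 were higher and 1 lower, beside 6.67% and 7.75% of all genes, the median was 0.67, and Ntrk2 rose by 2.45 (adjusted p = 4.97e-08, edgeR). In control neurons against day 2 progenitors 13 were higher and 2 lower, beside 21.2% of all genes in each direction.

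Markers of the cell types in which POU4 factors are known were summed in each library. The 15 sensory neuron markers summed to 206.2 CPM in control (183.2 to 221.2), 61.9 in iHoxc9 (60.7 to 62.6) and 90.6 in iHoxc10 (86.7 to 95.01), so they were lowest of the day 4 groups where the family sum was highest. In control the intermediate filament gene Prph made up 143.5 CPM of the sum, and in iHoxc9 it fell by 3.43 on the log2 scale (adjusted p = 1.59e-10, edgeR) to 13.3 ± 2.19 CPM. Of the 15, 2 were higher and 5 lower in iHoxc9, beside 6.95% and 7.13% of all genes. In iHoxc10 1 was higher and 2 lower, near the shares of all genes (6.67% and 7.75%). Trpv1 was at 0 in iHoxc9, and in iHoxc10 Prdm12, Runx3, Scn10a and Trpv1 were at 3 counts or fewer.

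The 11 hair cell markers summed to 47.4 CPM in iHoxc9 (41.9 to 50.3), 29.1 in iHoxc10 (26.1 to 31.2) and 19.3 in control (13.02 to 28.2). In iHoxc9, the group with Pou4f3, 4 were higher and 1 lower at an adjusted p under 0.01, beside 6.95% and 7.13% of all genes. Cdh23, a cadherin of the hair cell tip link, rose in iHoxc9 by 2.02 (adjusted p = 0.00105, edgeR) and in iHoxc10 by 3.14 (adjusted p = 8.64e-06, edgeR). The other 3 that rose, and Gfi1, which fell, are named after their values were seen. Tmc1, a channel protein of hair cell mechanotransduction, had 9 to 19 counts in iHoxc9 and was at least 5.05-fold higher than control on the floor (adjusted p = 0.00154, edgeR), which was lost without the first control library or the third iHoxc9 library (adjusted p = 0.0111 and 0.0113, edgeR). The myosin Myo7a rose by 1.56 (adjusted p = 0.00686, edgeR), which was lost with the replicate number as a block (0.0102), with no filter on low counts (0.0109), and without any one of the iHoxc9 libraries, the first or the third control library, or the first or the third iHoxc8 library (0.011 to 0.0382). Gfi1, a zinc finger factor of hair cells, was at least 7.53-fold lower than in control (adjusted p = 0.00136, edgeR). Of the 11, Atoh1, Gfi1, Otof, Ptprq and Pvalb were at 3 counts or fewer in every iHoxc9 library, and 4 of these, all but Gfi1, were so in control too. The unconventional myosin Myo6, which other cells also express, rose by 1.39 (adjusted p = 0.000224, edgeR) and made up 43.4 of the 47.4 CPM.

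The 12 dorsal spinal cord markers summed to 12.5 CPM in iHoxc9 (11.3 to 14.4), against 2.82 in control (2.16 to 3.26) and 3.30 in iHoxc10 (2.24 to 4.62). This sum was made up largely of Tlx3 and of Olig3, a factor of the dorsal progenitors, which rose by 4.44 in iHoxc9 (adjusted p = 1.58e-07, edgeR) and by 2.51 in iHoxc10 (adjusted p = 0.000494, edgeR). The other 10 did not pass in either group, and Atoh1, Pax3, Barhl1, Barhl2, Lhx9 and Tlx1 were at 3 counts or fewer in every iHoxc9 and iHoxc10 library. The 7 retinal markers summed to 22.9 CPM in iHoxc9 (19.7 to 28.3) and 11.5 in control (8.94 to 14.6), with Rax, Six3, Six6 and Eomes at 3 counts or fewer in iHoxc9.

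The 6 neural crest and glia markers summed to 1.35 CPM in iHoxc9 (0.978 to 1.65), 3.63 in iHoxc10 (3.40 to 4.06) and 2.01 in control (1.77 to 2.28). Foxd3 rose in iHoxc10 by 2.01 (adjusted p = 0.00368, edgeR), which was lost without the first or second control library (adjusted p = 0.0134 and 0.0156, edgeR) and without the first or second iHoxc10 library (0.0154 and 0.0147). The 7 motor neuron markers summed to 310.3 CPM in iHoxc9 and 515.8 in iHoxc10, against 554.8 in control, and the 5 progenitor markers to 542.2, 373.3 and 406.1 CPM. The part of any of these cell types in the POU4 levels was not tested.

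**Figure D4:**
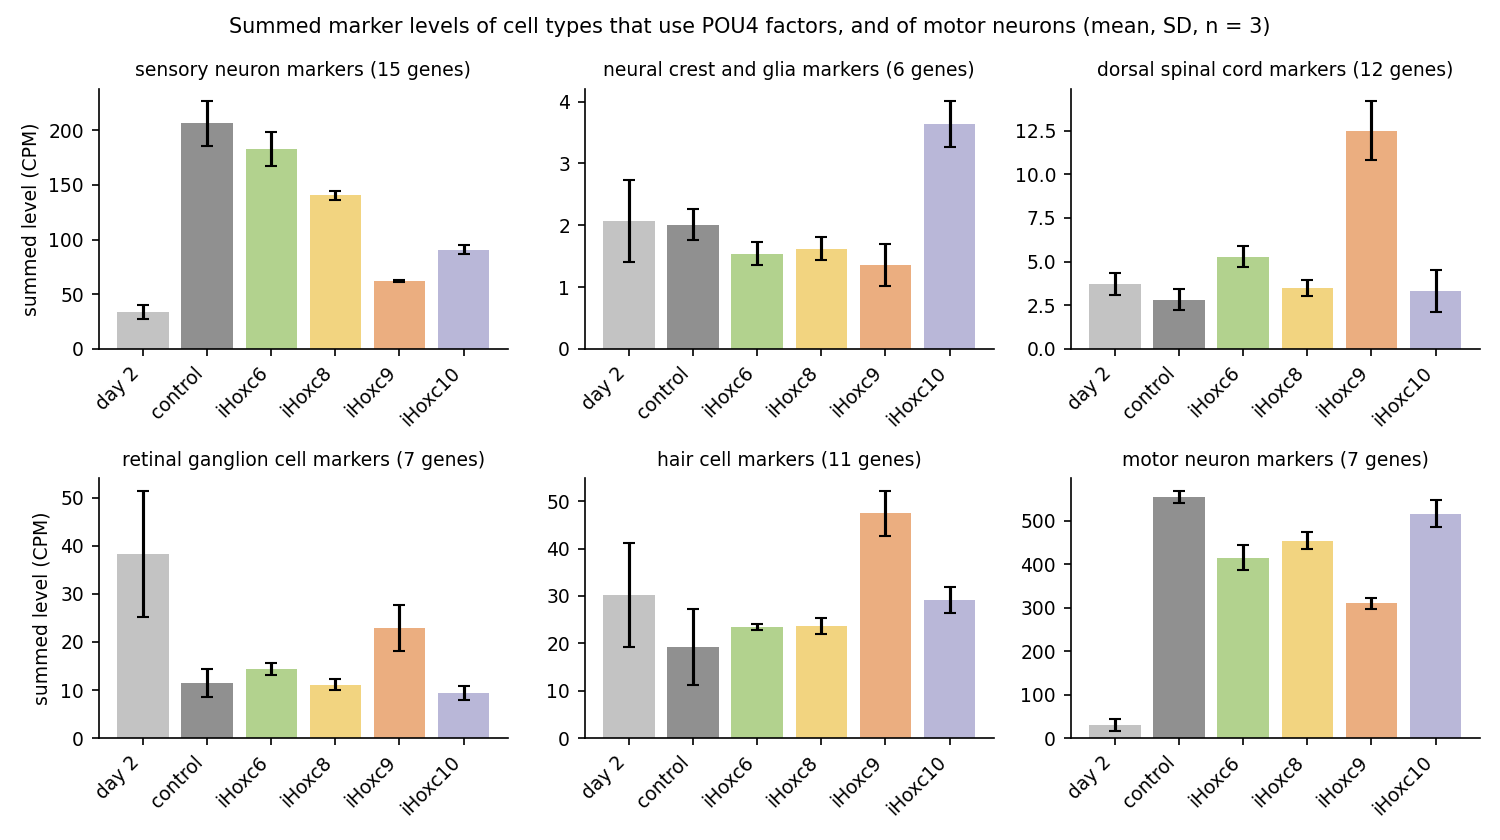
Summed CPM of marker lists for 5 cell types known to use POU4 factors or to lie near them in development, and for motor neurons, in the 6 groups; bars are means and error bars SD of 3 libraries, each panel on its own linear scale. The sensory sum is 206.2 CPM in control and 61.9 in iHoxc9, while the dorsal and hair cell sums are highest in iHoxc9, at 12.5 and 47.4 CPM.

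The genes whose pattern was most like that of a member were found by Pearson's r of log2(CPM + 1) over the 15 day 4 libraries, among 13514 genes with a mean of at least 1 CPM in a day 4 group. The libraries of a group share line and run, so r describes mostly the 5 group levels. Most like Pou4f3 were Dgkb (0.993), a diacylglycerol kinase, Slc17a6 (0.992), the vesicular glutamate transporter of excitatory neurons, the induced Hoxc9 (0.992), and the homeodomain genes Shox2 (0.988) and Dbx1 (0.988). In iHoxc9 neurons Dgkb was 2.97 ± 0.164 CPM, Slc17a6 11.8 ± 2.64, Shox2 5.45 ± 0.616 and Dbx1 16.0 ± 1.65 CPM, and in the other day 4 groups no mean of these 4 was above 0.7545 CPM. In iHoxc10 these 4 stood at between 2.02% and 4.73% of their iHoxc9 level, as compared with 7.26% for Pou4f3. In day 2 progenitors Dbx1 was 8.97 ± 4.77 CPM, where Pou4f3 was at 0.

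Most like Pou4f1 were Gpr153 (0.976), an orphan receptor, Sema4g (0.948), a semaphorin, Spock2 (0.946), a proteoglycan, Kif21b (0.940), a kinesin, and Speg (0.940), a kinase. These genes have higher levels than Pou4f1, from 23.7 to 120.7 CPM in control and from 38.3 to 312.7 CPM in iHoxc10. They differ from Pou4f1 in day 2 progenitors, where all 5 were below their control level. With the day 2 libraries included, none of the 5 remained among the 5 most like Pou4f1.

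**Figure D5:**
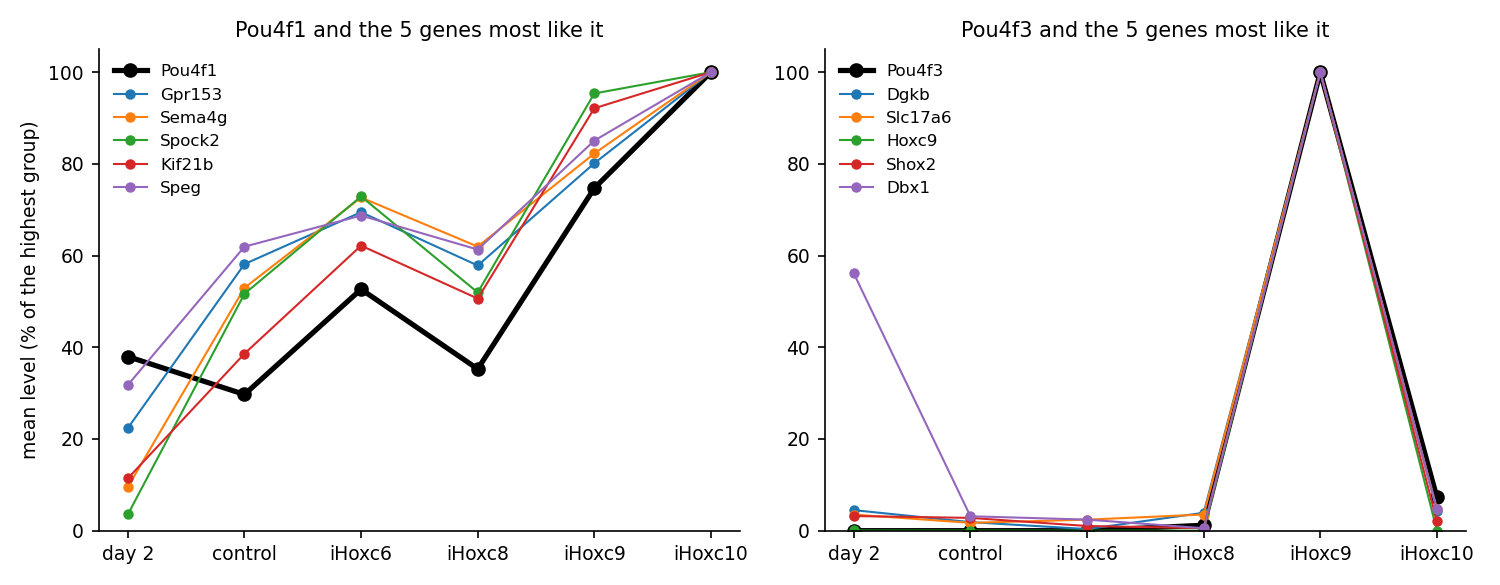
Mean level as a percent of the highest group, for Pou4f1 (left) and Pou4f3 (right), in black, and the 5 genes most like each over the day 4 libraries, in color; lines only join the groups of a gene. Pou4f3 and its 5 genes are high in iHoxc9 alone among day 4 groups, while Pou4f1 and its 5 genes have their highest mean in iHoxc10, and in day 2 progenitors the 5 genes lie below control and Pou4f1 does not.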

How the data were processed

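RNA-seq was analysed for 18 libraries in 6 groups of 3, assigned by their labels. The authors mapped reads to mm10 with STAR (2.7.0c), assigned them to RefSeq genes with featureCounts (genes of equal Entrez identifier were merged) and deposited raw read counts per gene. The kit marks strand, but the strand setting of the counting is not given in the sources used here. No column of counts was left unused, and 25275 of 27179 identifiers matched a symbol.

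TMM normalization and the quasi-likelihood test of edgeR 4.0.16 (R 4.3.3) were applied to all libraries together. The 20944 genes tested had a count of 1 or more in some iHox library, and p-values were adjusted over all of them (Benjamini-Hochberg). Calls used an adjusted p under 0.01, alone or, after the study, together with a log2 fold change beyond 2. Standard errors come from the F statistic. Where no library of a group exceeded 3 counts, folds are lower bounds against 3 counts per library. Floors cover counting error only. Exons per gene came from GENCODE M21, kept within the RefSeq span. The code was tested on simulated data.

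The members and the 11 gene lists were chosen with earlier results of these data known. Tests of the members against control are not given, since the control libraries took part in that choice. Named were the members, all other POU genes, up to 3 called genes per list and comparison with a mean of at least 1 CPM (for control against day 2 progenitors, POU genes only), and the 5 genes most like each member that reached 1 CPM. A few genes that it selected are left out of the text. The labels number the libraries of each group from 1 to 3. For iHoxc9 and iHoxc10, same-numbered libraries deviated together (correlations of 0.525, 0.428 and 0.599). The tests given for iHoxc9 against iHoxc10 still had a term for the group only and did not use these pairs. The pairs enter only through the replicate block, an alternative. Alternatives were DESeq2 1.42.0, its size factors, other filters, a lower fold threshold, the 2 groups alone in the fit, the replicate number as a block, another pseudocount and each library left out.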

Additional observations from a re-analysis of the deposited data

Results flagged for a closer look

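Among the genes of the lists reported here, 5 differed between the effects of iHoxc9 and iHoxc10 against their shared control, by edgeR's test of iHoxc9 against iHoxc10, at both thresholds (p adjusted under 0.01, log2 fold change beyond 2). Tlx3 (3.12), Adcyap1 (2.71) and Isl2 (2.64) were higher in iHoxc9, the group with Pou4f3. Runx1 (-3.44) and Sox10 (-2.89) were lower there. Isl2 was at 46.4 ± 3.75 CPM in iHoxc9 and 45.4 ± 4.59 in control, and Runx1 went from 8.23 ± 4.07 CPM in iHoxc10 to 0.752 ± 0.0454 in iHoxc9 (SD, n = 3). Sox10, at 0.135 and 1.07 CPM, rests on at most 30 counts per library. With 3 libraries per group, no sample was tested for standing apart from its group.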

How the results depend on the processing

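Under the alternatives the log2 fold change of Pou4f1 in iHoxc10 against control was 1.57 to 1.88. The fold of Pou4f3 in iHoxc9 over control was at least 24.1 to 26.3 with a library of these groups left out. Some alternatives could not give a value: Pou4f3 had 0 counts in control, day 2 progenitors and iHoxc6, and Pou4f2 had no test or fold in comparisons with iHoxc9. Over all genes, the calls at both thresholds numbered 2630 in control against day 2 progenitors, then 24, 46, 566 and 311 in iHoxc6, iHoxc8, iHoxc9 and iHoxc10 against control, and 274 in iHoxc9 against iHoxc10. A log2 fold change beyond 1 raised them to 5965, 101, 285, 1636, 1437 and 701, since that threshold is lower. With a library left out the count ran from 17 to 50 for iHoxc6, with 50 without the second control library and 40 without the third day 2 library, and from 26 to 61 for iHoxc8, with 26 without the third control library and 28 without the first iHoxc8 library. For iHoxc9 against iHoxc10, where same-numbered libraries deviated together, the replicate block left 258 calls in place of 274, and the log2 difference of Pou4f1 at -0.42. In the other comparisons same-numbered libraries did not deviate together (correlations from -0.465 to 0.321), and the block gave 2543, 22, 44, 545 and 302 calls. The block changed the call of Pou3f2 in iHoxc10 and of no other POU gene, and that of Myo7a in iHoxc9. With the stricter filter (3 libraries of 10 counts or more), Pou3f2 in iHoxc10 had an adjusted p of 0.0111. With all 18 libraries, 0 of the 5 genes most like Pou4f1 were shared, and 5 with a pseudocount of 0.1 CPM. Depth limits Pou4f2 and Pou4f3 outside iHoxc9, where 3 counts stand for about 0.1 CPM, and 3 libraries per group limit every test.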
